A study of Mus musculus with 16 samples.

Results

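Fgf21, Klb and Fgfr1, the genes of the hormone FGF21, its coreceptor β-klotho and the FGF receptor with which β-klotho pairs, were followed by symbol through bulk RNA-seq of whole mouse pancreas. They are 3 of the 24411 genes in the count table, and all 3 were among the 13660 genes that passed the filter on low counts. Pancreas RNA came from 16 male mice of 12 weeks on the C57BL6/J strain, each sequenced as 1 polyA library. The groups were WT mice on control water (n = 5), leptin-deficient Lep(ob/ob) mice on control water (n = 7) and Lep(ob/ob) mice whose drinking water held a CCK receptor antagonist (CCKRi, n = 4) for 6 weeks from 6 weeks of age. Of the treated mice, 69 and 72 drank proglumide (0.1 mg/mL) and 74 and 76 drank lorglumide (0.05 mg/mL). Mean weights of the 3 groups were 27.7, 51.0 and 54.8 g, with SDs of 3.22, 1.98 and 2.22 g. Lep(ob/ob) mice lack leptin in every tissue from birth, Lep(ob/ob) mice were purchased, the sources differ on whether the WT mice were purchased or bred in house, and the treated mice share the Lep(ob/ob) genotype, so that an effect of the drugs in WT mice was not analysed here.

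FGF21 is an endocrine member of the fibroblast growth factor family. It binds weakly to FGF receptors alone and signals where β-klotho holds it to an FGF receptor, mainly the c isoform of FGFR1, after which adaptor proteins lead to the kinase ERK. Liver secretes most of the circulating hormone, under PPARα in fasting and under ATF4 in amino acid shortage and endoplasmic reticulum stress, while acinar cells of the pancreas make it as well and respond to it by secreting digestive enzymes. Obese animals are known for high circulating FGF21 and for a weak response to it.

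In the GENCODE annotation of GRCm38, Fgf21 lies at chr7:45613886-45615490 on the minus strand, with 3 exons in 951 bases. Klb lies at chr5:65348314-65384007 on the plus strand with up to 5 exons. Fgfr1 lies at chr8:25513654-25575718 on the plus strand with up to 18 exons, and the antisense gene Gm16159 lies inside it. The library kit marks strand, but the strand setting of the counting is not given in the sources used here, so reads of Gm16159 cannot be told apart from those of Fgfr1. Of the 3 genes, 2 had an entry among the RefSeq promoter windows of GRCm38.p6. Their upstream bases are shown 5′ to 3′ on the gene's own strand, because known regulators of Fgf21 bind close to its start. The stretches shown are chr7:45615491-45615740 on the minus strand for Fgf21 and chr5:65348161-65348313 on the plus strand for Klb. Capitals mark a match of TGATGNAA, the letters of a C/EBP-ATF composite site used by ATF4, and a match of CACGTG, the E-box letters bound among others by ChREBP and MIST1.
Fgf21: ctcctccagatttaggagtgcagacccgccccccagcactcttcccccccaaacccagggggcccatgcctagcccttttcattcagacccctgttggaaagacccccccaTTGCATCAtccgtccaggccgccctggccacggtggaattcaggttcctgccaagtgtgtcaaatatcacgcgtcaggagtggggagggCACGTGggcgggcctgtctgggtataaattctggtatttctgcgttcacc
Klb: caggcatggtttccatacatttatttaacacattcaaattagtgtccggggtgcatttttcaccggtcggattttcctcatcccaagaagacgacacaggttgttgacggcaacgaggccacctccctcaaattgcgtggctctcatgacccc

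Both strands were searched. In the Fgf21 window the TGATGNAA match lies on the opposite strand, at -139 to -132 from the start of the gene, and CACGTG at -50 to -45. Over all 32851 promoter windows, TGATGNAA occurred in 3.97% and CACGTG in 7.15%. The Klb window held neither set of letters. These matches describe letters and were not tested as sites.

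Counted reads ranged from 9.87 M in the shallowest library to 34.5 M in the deepest. The labels name 2 batches, called A (3 WT and 4 Lep(ob/ob) mice, 19.2 to 34.5 M reads) and B (2 WT, 3 Lep(ob/ob) and all 4 CCKRi-treated mice, 9.87 to 15.9 M reads), so CCKRi was compared with the other groups through mice of batch B and a batch term. The ob allele is a point mutation that leaves a Lep transcript, so reads of Lep do not check the genotype, and their number lay between 13 and 55 for WT, between 200 and 12256 for untreated and between 783 and 11181 for treated Lep(ob/ob) mice. The tissue label was checked on markers, and each of 11 acinar markers had reads in every mouse. Markers of liver, which makes most FGF21, summed over 5 genes to 1.94 to 46.4 CPM (counts scaled to library size). The highest of these sums belonged to WT mouse 5492, which had the lowest Fgf21 of the WT mice. The next highest, at 14.9 CPM, belonged to WT mouse 5489, which had the highest Fgf21 of all mice. Adipocyte markers, summed over 7 genes, ran from 65.0 to 212 CPM in WT, 66.7 to 1550 CPM in Lep(ob/ob) and 205 to 1173 CPM in CCKRi-treated mice. CCKRi-treated mouse 72 was at 351 CPM. Above it, with no clear gap, came the 4 mice with the highest sums. These were Lep(ob/ob) mice 417, 461 and 463 (457, 479 and 1550 CPM) and CCKRi-treated mouse 69 (1173 CPM). Several results below are given with and without them. Leaving them out keeps mouse 464 as the only untreated Lep(ob/ob) mouse of batch B. In whole tissue, fewer cells of a type and less RNA per cell cannot be told apart.

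Per kb of exon, Fgf21 had the highest mean level of the ligand and receptor transcripts in lean pancreas. Its level was 220 ± 165 normalized counts per kb in WT (SD, n = 5), against 71.0 ± 30.7 for Klb and 62.7 ± 9.37 for Fgfr1. Normalized counts are read counts divided by 1 size factor per mouse. Over both batches, levels of Klb and Fgfr1 did not differ beyond their spread. With the longest transcript as length their order turned, with 91.3 ± 39.4 per kb for Klb and 123 ± 18.4 per kb for Fgfr1 (SD, n = 5). Within each batch their WT ranges per kb of exon did not overlap. Klb was higher in batch A (82.8 to 101 against 54.0 to 74.3) and Fgfr1 in batch B (52.4 to 68.2 against 27.6 to 51.3). The lowest WT mouse for Fgf21 was at 45.8 per kb, inside the range of Klb (27.6 to 101 per kb) and below that of Fgfr1 (52.4 to 74.3 per kb). Among the other receptor genes in WT, the levels per kb of exon fell in the order Fgfrl1 at 48.8, Fgfr3 at 39.3, Fgfr2 at 15.2, Fgfr4 at 8.85 and Kl at 1.05. Fgfrl1 and Fgfr3 did not differ beyond their spread, and their order turned with the longest transcript as length (58.3 and 66.2 per kb) and in batch B (35.1 and 53.9 per kb of exon). Fap, the gene of a protease that can cleave FGF21, was at 7.98 per kb.

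Fgf21 was the gene of the 3 that varied most from mouse to mouse. The WT mice of batch A had 443, 43.5 and 277 normalized counts and those of batch B had 180.0 and 104.9. The Lep(ob/ob) mice of batch A had 82.5, 304, 27.8 and 85.7 normalized counts and those of batch B had 83.9, 20.5 and 123. The proglumide mice had 42.5 and 106 and the lorglumide mice 60.4 and 114. The 3 highest mice were WT mouse 5489, Lep(ob/ob) mouse 472 and WT mouse 5494, all of batch A, and all 3 groups overlapped. Highest and lowest differed 10.2-fold among WT and 14.9-fold among Lep(ob/ob) mice, and these values rest on 29 to 391 reads per mouse.

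Within a group and batch, log2 CPM of Fgf21 had an SD of 1.24 (11 degrees of freedom), where the median over all genes tested was 0.31. Of the 13660 genes, 99.6% varied less, and among 2622 genes within 0.5 log2 CPM of its level 8 varied more. Without the 4 mice with the highest adipocyte marker sums, the SD was 1.14 and 99.8% of genes varied less. Klb and Fgfr1 had SDs of 0.33 and 0.33, which 54.2% and 53.5% of genes were below, and among genes within 0.5 log2 CPM of their own level 78.1% and 77.3% varied less.

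**Figure D1:**
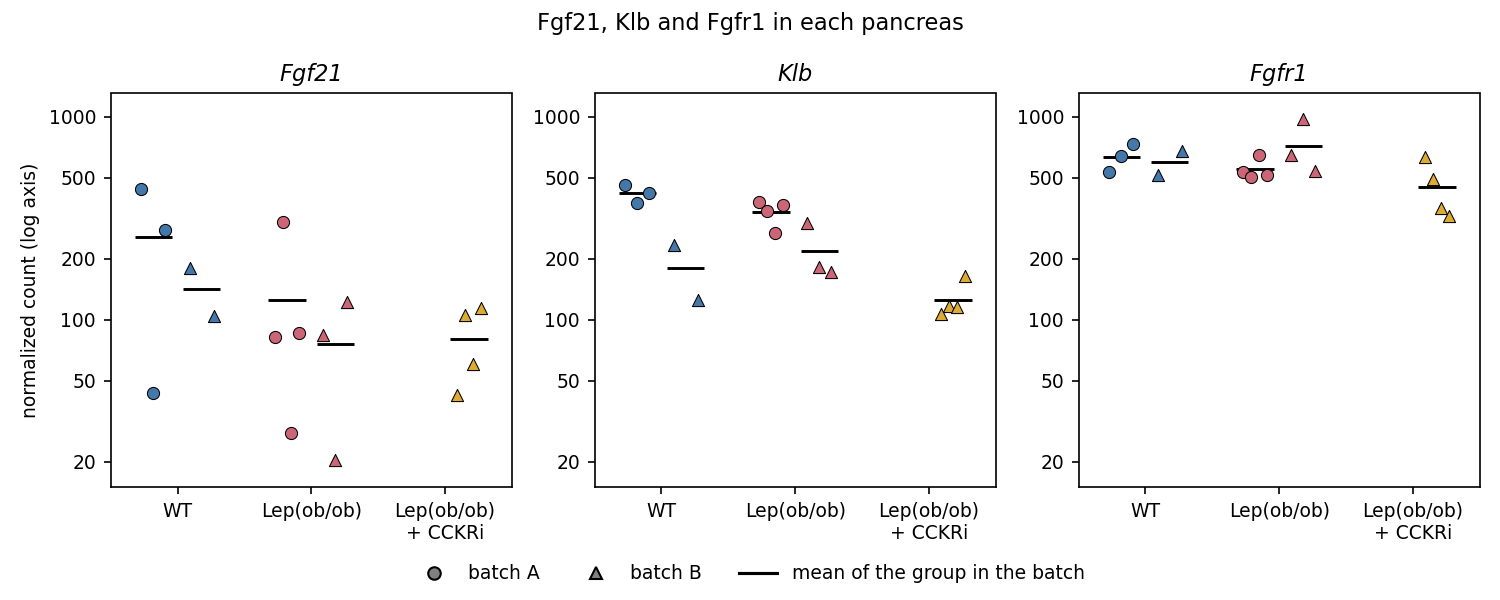
Normalized counts (log axis) of Fgf21, Klb and Fgfr1 in each mouse, by group, with circles for batch A, triangles for batch B and a line at the mean of each group in each batch. Fgf21 spans 20.5 to 443 with all groups overlapping, the WT and Lep(ob/ob) means of Klb are lower in batch B than in batch A, and Fgfr1 lies between 323 and 970.

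Obesity was examined first. Fgf21 averaged 210 ± 157 normalized counts in WT (SD, n = 5) and 104 ± 95.3 in Lep(ob/ob) mice (SD, n = 7), a log2 fold change of -0.99 (SE 0.56, 95% interval -2.17 to 0.19). The difference did not pass the quasi-likelihood test of edgeR after adjustment over all genes (adjusted p = 0.30), and the interval runs from a lower level of over 4-fold to a slightly higher one. Across all genes tested, 5.93% were called higher and 3.14% lower in Lep(ob/ob) than in WT, and none of the 3 genes was among them. Without the 4 mice of high adipocyte marker sums, the log2 fold change of Fgf21 was -0.51. Its Lep(ob/ob) mean was below the WT mean in each batch, by 0.98 on the log2 scale in batch A and by 1.18 in batch B, with exact permutation p = 0.514 and p = 0.4. Permuting within both batches gave p = 0.217 (exact, two-sided, over 350 splits with a smallest possible p of 0.00571).

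Klb, whose product decides which tissues answer to FGF21, was read at 459, 376 and 421 normalized counts in the WT mice of batch A and at 234 and 125 in those of batch B. The Lep(ob/ob) mice had 379.3, 343, 268 and 367.3 normalized counts in batch A and 301, 183 and 171 in batch B. The groups overlapped in each batch, in batch A only through WT mouse 5492 and Lep(ob/ob) mouse 441, and the mice of batch A were higher than most of batch B in both groups. Over all mice, Klb was at 323 ± 140 in WT (SD, n = 5) and 287 ± 84.6 in Lep(ob/ob) mice (SD, n = 7), with a log2 fold change of -0.09 (SE 0.19, 95% interval -0.49 to 0.31, edgeR adjusted p = 0.820). Its mean in Lep(ob/ob) mice was 0.31 lower on the log2 scale in batch A (exact permutation p = 0.114; on log2 CPM, where the groups did not overlap, 0.0571, the smallest possible) and 0.30 higher in batch B (exact permutation p = 0.6).

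Fgfr1, a receptor tyrosine kinase shared by many FGFs, was at 533, 640.0 and 733 normalized counts in WT mice of batch A and at 517 and 674 in those of batch B. Lep(ob/ob) mice had 537, 503, 646 and 517 normalized counts in batch A and 647, 970 and 543 in batch B. WT values lay inside the Lep(ob/ob) range, which mouse 463 extended upwards. The group means were 620 ± 92.5 (SD, n = 5) and 623 ± 163.96 (SD, n = 7), and the log2 fold change was -0.03 (SE 0.18, 95% interval -0.42 to 0.36, edgeR adjusted p = 0.949). With a score of islet markers as covariate, the log2 fold change was positive and passed adjustment, with values given in the section on processing. That score, in mean log2 CPM, nearly separates the genotypes, at 4.52 to 5.10 in WT and 5.00 to 7.36 in Lep(ob/ob) mice. Such a fit cannot tell islet content from genotype. By batch, the mean was 0.20 lower on the log2 scale in batch A and 0.24 higher in batch B (exact permutation p = 0.286 and p = 0.6). The dependence of the difference on batch was tested as an interaction in edgeR, with adjusted p = 0.991 for Fgf21, 0.533 for Klb and 0.556 for Fgfr1 over 14221 genes, of which 0 were called.

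Next, CCKRi-treated Lep(ob/ob) mice were compared with untreated ones, to ask whether blocking the CCK receptor moved these genes. Klb was at 106 and 117 normalized counts in the proglumide mice and at 115 and 164.5 in the lorglumide mice. All 4 were below the 3 untreated Lep(ob/ob) mice of batch B, at 171 to 301, while 1 of the 2 WT mice of that batch, at 125, lay among them. The log2 fold change against Lep(ob/ob) was -0.64 (SE 0.23, 95% interval -1.13 to -0.15), and it did not pass adjustment (edgeR adjusted p = 0.280, DESeq2 adjusted p = 0.166). In batch B alone the exact permutation p was 0.0571, the smallest that 4 against 3 mice allow. Few genes passed in this comparison, 0.0586% of those tested by edgeR and 0.945% by DESeq2, while 14.3% had an unadjusted edgeR p under 0.05. Without the 4 mice of high adipocyte marker sums, the log2 fold change of Klb was -0.30. That fit keeps 1 untreated Lep(ob/ob) mouse of batch B, mouse 464, which had the lowest Klb of the 3, at 171.

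Fgfr1 was at 633 and 491 normalized counts in the proglumide mice and at 354.6 and 323 in the lorglumide mice, against 647, 970 and 543 in untreated mice of batch B. The lorglumide mice had the lowest Fgfr1 of all 16 mice, and the proglumide mice overlapped with the untreated ones. The log2 fold change was -0.54 (SE 0.22, 95% interval -1.01 to -0.07, edgeR adjusted p = 0.309), and the exact permutation p in batch B was 0.114. Doses of the drugs differ and each was given to 2 mice, so the drugs were not compared with each other. Fitted alone against Lep(ob/ob), the log2 fold change of Fgfr1 was -0.23 for proglumide (edgeR adjusted p = 0.777) and -0.94 for lorglumide (edgeR adjusted p = 0.200). Fgf21 was at 80.9 ± 34.9 normalized counts under CCKRi (SD, n = 4), with a log2 fold change of 0.15 against Lep(ob/ob) (SE 0.70, 95% interval -1.33 to 1.64, edgeR adjusted p = 0.929). This interval leaves room for changes of over 2-fold in either direction.

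Set against WT, treatment left Fgf21 at a log2 fold change of -0.84 (SE 0.74, edgeR adjusted p = 0.646), Klb at -0.73 (SE 0.25, adjusted p = 0.122) and Fgfr1 at -0.57 (SE 0.24, adjusted p = 0.231). Among 16 alternative settings, Klb passed in 3 and Fgfr1 in 4, with edgeR or DESeq2 adjusted p from 0.00145 and 0.00485 upwards. This comparison shares its WT mice with the first and its treated mice with the second. Of all genes, 4.22% were called higher and 1.35% lower. In batch B, no exact permutation test of 4 against 2 mice can go below 0.133, and the values were 0.4 for Fgf21, 0.267 for Klb and 0.267 for Fgfr1.

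The other genes of the receptor family were read beside the members. In Lep(ob/ob) against WT, 2 of the 7 receptor and coreceptor genes rose, where 5.93% of all genes did, and the median log2 fold change of the 7 was -0.09 beside -0.02 over all genes tested. Kl encodes α-klotho, the coreceptor of FGF23, which does not serve FGF21. It was at 6.73, 16.5 and 13.99 normalized counts in WT mice of batch A and at 3.24 and 8.65 in those of batch B. Lep(ob/ob) mice had 82.5, 91.9, 126 and 56.3 in batch A and 25.7, 27.5 and 36.05 in batch B. Every Lep(ob/ob) mouse was above every WT mouse, and the log2 fold change was 2.61 (SE 0.49, edgeR adjusted p = 0.00280). CCKRi-treated mice had 7.08, 42.8, 50.7 and 93.0, of which the lowest, mouse 69, lay among the WT values. Of the islet markers, 8 of 12 were also called higher in Lep(ob/ob), with sums of 1321 to 1943 CPM in WT and 2639 to 13524 CPM in Lep(ob/ob) mice. With the islet marker score as covariate the log2 fold change of Kl was 1.03 (edgeR adjusted p = 0.103). Because that score nearly separates the genotypes, this fit cannot tell islet content from genotype, and their relation to Kl was not tested.

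Fgfrl1, a receptor without a kinase domain, had 89.2 to 197.7 normalized counts in WT with a median of 117, and 203 to 546 in Lep(ob/ob) mice with a median of 255. The groups did not overlap, and the log2 fold change was 1.04 (SE 0.31, edgeR adjusted p = 0.0480). That call was lost in 8 of the 12 fits that left out 1 mouse, among them each WT mouse except 5492, with adjusted p up to 0.156. It was also lost with no batch term, with a filter of 10 counts, with the acinar score and in each batch alone (edgeR adjusted p = 0.0510 to 0.188), and the log2 fold change ran from 0.63 in batch A alone to 2.02 with the islet score. Without the 4 mice of high adipocyte marker sums its log2 fold change was 0.68 (edgeR adjusted p = 0.00711). Fgfr2, Fgfr3 and Fgfr4, the genes of the other FGF receptor kinases, had log2 fold changes of -0.47, -0.30 and -0.60 that did not pass (edgeR adjusted p = 0.0822, 0.520 and 0.392). Fgfr2 passed with the adipocyte score as covariate, at -0.49 (edgeR adjusted p = 0.0478), and without Lep(ob/ob) mouse 417, at -0.56 (0.0499). Without WT mouse 59 the log2 fold change of Fgfr4 was -0.05. Fap was at 45.2 ± 19.6 normalized counts in WT (SD, n = 5) and 54.1 ± 30.2 in Lep(ob/ob) mice (SD, n = 7). Of the other endocrine FGFs, Fgf15 had 2 reads in all, in Lep(ob/ob) mouse 463, and Fgf23 had 1 read, in Lep(ob/ob) mouse 417, so neither was tested.

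**Figure D2:**
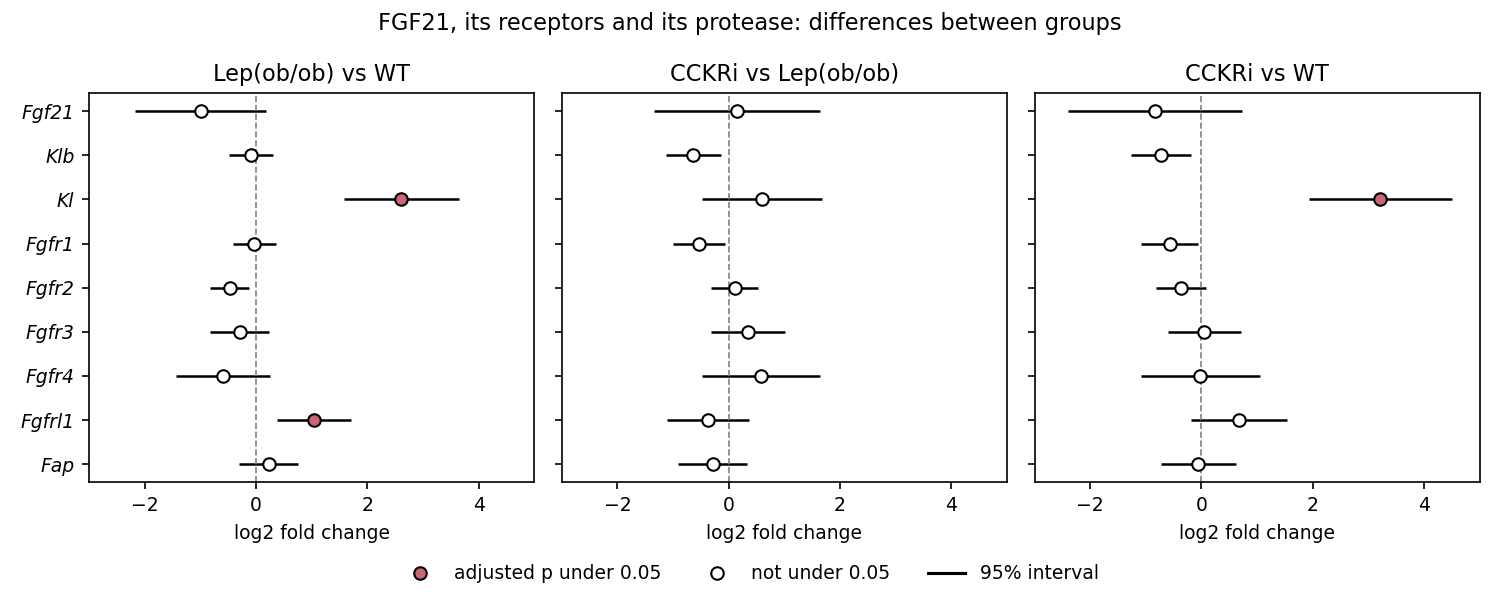
Log2 fold changes with 95% intervals of Fgf21, its coreceptor and receptor genes and the protease gene Fap in the 3 comparisons, filled where edgeR's adjusted p was under 0.05. Kl is filled in both comparisons with WT and Fgfrl1 in Lep(ob/ob) against WT, while the intervals of Fgf21 are among the widest.

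Genes downstream of FGF receptors were taken from a list. Of the 20 ERK feedback and target genes, 17 were tested and 8 rose and none fell by edgeR, where 5.93% of all genes rose and 3.14% fell, and the median log2 fold change was 0.60 beside -0.02 over all genes tested. DESeq2, which called 12.4% of all genes, called 9 of them higher and 1 lower, the lower being Myc, named after its values were seen. Without the 4 mice of high adipocyte marker sums, 5 of the 17 were called by edgeR, where 1721 of 14001 genes were called in that fit and 1239 of 13660 with all mice. ERK is also driven by many other receptors, so these genes do not read FGF21 alone.

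Etv5, a transcription factor that FGF signalling induces in many tissues, led this list. In WT it was at 84.8, 50.6 and 76.9 normalized counts in batch A and 73.0 and 64.9 in batch B. In Lep(ob/ob) mice it was at 568.4, 432, 506 and 479 in batch A and at 359, 226 and 190.4 in batch B. Each Lep(ob/ob) value was more than 2-fold above the highest WT value, and the log2 fold change was 2.43 (SE 0.21, edgeR adjusted p = 2.38e-05). CCKRi-treated mice had 217, 234, 174 and 170.4, which overlapped with the untreated Lep(ob/ob) mice of batch B, and the log2 fold change against Lep(ob/ob) was -0.54 (SE 0.24, edgeR adjusted p = 0.326). With the islet marker score as covariate, which nearly separates the genotypes, Etv5 differed between Lep(ob/ob) and WT by 2.41 (edgeR adjusted p = 5.18e-05).

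Next in size came Dusp4, a nuclear phosphatase of ERK, with a log2 fold change of 2.16 (SE 0.62, edgeR adjusted p = 0.0360). Its call was lost without WT mouse 5489, 58 or 59 or Lep(ob/ob) mouse 417, with adjusted p up to 0.118, and without the 4 mice of high adipocyte marker sums the log2 fold change was 1.16 (adjusted p = 0.0634). The factor Etv1 rose by 1.39 (SE 0.25, adjusted p = 0.00234). Spred3, a feedback inhibitor of ERK signalling, rose by 1.39 (SE 0.37, adjusted p = 0.0273), a call lost without WT mouse 5489, 5492 or 58 or Lep(ob/ob) mouse 417, with adjusted p up to 0.0723. Spred1, Spred2, Dusp5 and Dusp6 were the other genes that rose, whereas Spry1, Spry2, Spry4, Egr1, Fos and Myc were among the 9 that did not pass. The count of called genes ran from 4 to 9 in the fits without 1 mouse, being lowest without WT mouse 58. Without WT mouse 59 or Lep(ob/ob) mouse 417 it was 5. With no batch term and with a filter of 10 counts it was 5, where 798 and 782 of all genes were called. In batch B alone it was 0, where 8 genes were called, and with the adipocyte marker score 10, where 1999 were. In the comparison of CCKRi with Lep(ob/ob), 0 of the 17 passed in edgeR and 0 in DESeq2, 3 had an unadjusted edgeR p under 0.05, as had 14.3% of all genes, and the median log2 fold change was -0.19 beside -0.01 over all genes. In that of CCKRi with WT, 3 of 17 rose (Etv5, Etv1 and Spred2) and none fell, where 4.22% of all genes rose and 1.35% fell, with Spred2 called in 3 of 9 fits without 1 mouse, up to an edgeR adjusted p of 0.158. Among 16 alternative settings, Etv1 lost its call in 4 and Etv5 in 1 (edgeR or DESeq2 adjusted p up to 0.174 and 0.0832). The count of called genes was 0 in batch B alone and 7 with the fibroblast marker score, where 13 and 2077 of all genes were called.

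**Figure D3:**
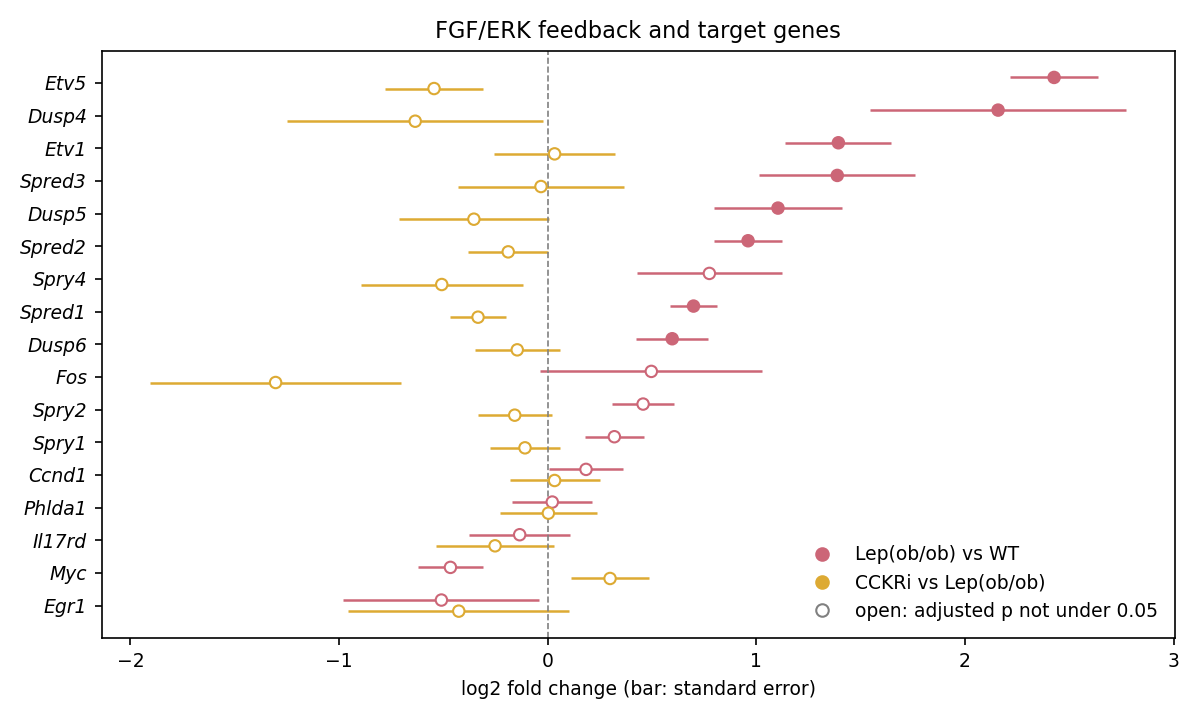
Log2 fold changes with their standard errors of the 17 tested ERK feedback and target genes, in Lep(ob/ob) against WT and in CCKRi against Lep(ob/ob), filled where edgeR's adjusted p was under 0.05. In Lep(ob/ob) against WT 8 genes are filled, with Etv5 at 2.43, and none is filled in CCKRi against Lep(ob/ob).

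Paracrine FGFs, which compete for the same receptors, had 6 of 15 genes tested. Fgf9 rose in Lep(ob/ob) mice by 0.92 on the log2 scale (SE 0.26, edgeR adjusted p = 0.0332), a call that 8 of 12 fits without 1 mouse lost, those without any of the WT mice among them, with adjusted p up to 0.0903. None of the others passed, where 5.93% of all genes rose and 3.14% fell, and the median of the 6 was 0.32. Without the mice of high adipocyte marker sums, Fgf9 lost its call and edgeR called 0 of the paracrine FGFs. Of all genes, 1721 of 14001 were called in that fit. None of the 6 passed in CCKRi against Lep(ob/ob) by edgeR or DESeq2, which called 0.0586% and 0.945% of all genes, and 1 had an unadjusted edgeR p under 0.05, as had 14.3% of all genes.

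Each of the 3 genes was then set against marker scores of the cell types in the tissue, a score being the mean log2 CPM of a marker list. Over all 16 mice, 15 relations were computed. Their permutations shuffled all 16 mice without regard to batch or group, so the p-values also carry differences between batches and groups. Klb followed the acinar score, with Pearson's r = 0.945 and Spearman's rho = 0.941 (permutation p = 1e-05 for each, the smallest possible, adjusted p = 0.00015). Without the 2 mice farthest from the median score r was 0.986, and it was 0.962 within batch A and 0.791 within batch B. Fgfr1 followed the fibroblast score, with r = 0.857 (permutation p = 2e-05, adjusted p = 0.00015) and rho = 0.809 (permutation p = 0.00034, adjusted p = 0.00255), r = 0.840 without the 2 farthest mice, and r = 0.725 and 0.893 within batches A and B.

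Fgf21 went against the adipocyte score, with r = -0.702 (permutation p = 0.00226, adjusted p = 0.0113) and rho = -0.612 (permutation p = 0.0131, adjusted p = 0.0655). Without the 2 farthest mice, Lep(ob/ob) mouse 463 and CCKRi-treated mouse 69, r was -0.531, and within batches A and B it was -0.561 and -0.874. The lowest Fgf21 of each group belonged to the mouse with the highest adipocyte score of that group, WT mouse 5492, Lep(ob/ob) mouse 463 and CCKRi-treated mouse 69. The remaining 12 relations, among them all pairs of the 3 genes with each other, had adjusted p of 0.0668 or more. For the pairs, r was 0.393 for Fgf21 with Klb, -0.303 for Fgf21 with Fgfr1 and 0.210 for Klb with Fgfr1.

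Acinar and fibroblast marker sums overlapped between the groups within batch B. In batch A the summed acinar markers were at 702124 to 777229 CPM in WT and 470632 to 732659 CPM in Lep(ob/ob) mice. In batch B they were at 207322 to 384863 CPM in WT, 193355 to 468245 CPM in untreated and 106294 to 322193 CPM in CCKRi-treated Lep(ob/ob) mice. In CCKRi against Lep(ob/ob), 0 of 11 acinar and 0 of 7 fibroblast markers passed in edgeR or DESeq2, which called 0.0586% and 0.945% of all genes, and 2 of the acinar markers had an unadjusted edgeR p under 0.05, as had 14.3% of all genes. Fibroblast markers summed to 423 to 663, 353 to 1396 and 274 to 591 CPM in the 3 groups, and 6 of 7 had an unadjusted edgeR p under 0.05, all lower, in CCKRi against Lep(ob/ob). With the acinar score as covariate, the log2 fold change of Klb in CCKRi against Lep(ob/ob) was -0.37 (edgeR adjusted p = 0.211), and with the fibroblast score as covariate that of Fgfr1 was -0.09 (edgeR adjusted p = 0.835). With the adipocyte score as covariate, Fgf21 differed between Lep(ob/ob) and WT by -0.81 (edgeR adjusted p = 0.213). How far cell composition takes part in these differences was not tested beyond these fits.

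**Figure D4:**
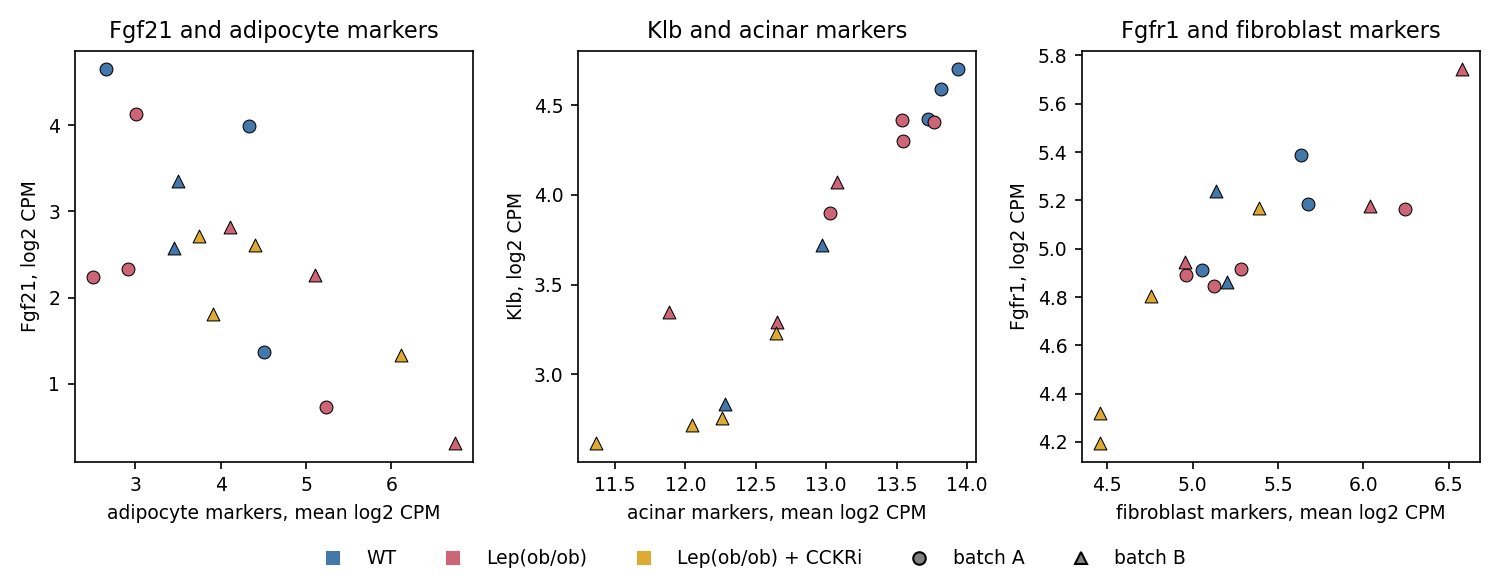
Log2 CPM of Fgf21, Klb and Fgfr1 in each of 16 mice against the mean log2 CPM of adipocyte, acinar and fibroblast markers, coloured by group, with circles for batch A and triangles for batch B. Fgf21 falls with the adipocyte score (r = -0.702), Klb rises with the acinar score (r = 0.945) and Fgfr1 rises with the fibroblast score (r = 0.857).

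The genes most like each member were sought by Pearson's r of log2 CPM over the 16 mice after removal of the batch term, among 11144 genes. For Fgf21 they were Pomgnt1 (r = 0.889), BC003331 (0.877), Ecsit (0.876), Fam149b (0.869) and Fut1 (0.855). Fut1, a fucosyltransferase gene, is the neighbour of Fgf21, at chr7:45617289-45621059 on the opposite strand with 1798 bases between the 2 genes. Fut1 was at 396, 178 and 304 normalized counts in WT mice of batch A and 197.8 and 208 in those of batch B. In Lep(ob/ob) mice it had 152, 318, 125 and 194 in batch A and 222.1, 62.9 and 198.3 in batch B, and in CCKRi-treated mice 174, 244.96, 206 and 182. Its lowest mice, Lep(ob/ob) 463 and 417, were also the lowest for Fgf21, and its highest, WT mouse 5489, was the highest for both. For Klb the 5 genes were Qsox1 (r = 0.972), Kars, Prpf19, Slc25a39 and Mpst, and for Fgfr1 Pcolce (r = 0.953), Ror1, Tbc1d2b, Zfp385a and Rab3il1. Without removal of the batch term, 2 of the 5 remained for each gene.

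Genes known to act on Fgf21, and genes that share its regulators, were read from lists. Of 15 tested transcription factors known to act on Fgf21, 2 rose in Lep(ob/ob) mice, Mlxipl (ChREBP) by 0.89 (SE 0.27, edgeR adjusted p = 0.0490) and Srebf1 by 0.64 (SE 0.15, adjusted p = 0.0133). Ppara, the receptor that induces Fgf21 in fasted liver, fell by 0.72 on the log2 scale (SE 0.14, edgeR adjusted p = 0.00344). The call of Mlxipl was lost in 10 of 12 fits without 1 mouse, all except those without WT mouse 59 or Lep(ob/ob) mouse 461, with adjusted p up to 0.123. That of Srebf1 was lost without WT mouse 58 (edgeR adjusted p = 0.0515), and without a batch term in edgeR (0.213) and DESeq2 (0.155). Of 20 ATF4 target genes, 0 were called by edgeR in Lep(ob/ob) against WT, 4 had an unadjusted p under 0.05 and 2 were called by DESeq2, with a median log2 fold change of -0.04. Over all genes, 23.8% had an unadjusted p under 0.05 and 12.4% were called by DESeq2. In batch A alone edgeR called 3 of the ATF4 target genes and with the fibroblast score 2, where 1145 and 2018 of all genes were called. Of 14 tested PPARα target genes, 3 rose, none fell and the median was 0.40. Of all genes, 5.93% rose and 3.14% fell by edgeR. They were Pdk4, which holds back pyruvate oxidation (1.82, SE 0.39, edgeR adjusted p = 0.00722), Acadl of fatty acid oxidation (0.95, SE 0.19, adjusted p = 0.00498) and the carnitine carrier Slc25a20 (0.86, SE 0.23, adjusted p = 0.0245, lost without WT mouse 5489, 58 or 59 or Lep(ob/ob) mouse 417, up to 0.0735). With the islet score 11 PPARα target genes were called and with the adipocyte or fibroblast score 5, where 3901, 1999 and 2018 of all genes were. In batch A alone 1 was called and in batch B alone 0, where 1145 and 8 of all genes were. The 4 mice of high adipocyte marker sums had the 4 highest values of Acadl. Without them the log2 fold changes were 1.98 for Pdk4, 0.74 for Acadl and 0.68 for Slc25a20 (edgeR adjusted p = 0.00230, 0.000513 and 0.0301), and with the adipocyte score as covariate 1.78, 0.82 and 0.73. In CCKRi against Lep(ob/ob), none of the genes of these 3 lists passed in edgeR or DESeq2, which called 0.0586% and 0.945% of all genes, and 1, 2 and 0 of them had an unadjusted edgeR p under 0.05, as had 14.3% of all genes.

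Correlations of Fgf21 with the lists were taken over the 16 mice with the batch term removed. Its r with the 20 ATF4 target genes had a median of 0.55 and was positive for 18, from -0.27 for Vldlr to 0.81 for Chac1, where the median over all 11144 genes was 0.10 and 6292 were positive. With the 14 PPARα target genes the median r was -0.62, and 2 were positive. It was also negative with the 6 paracrine FGFs (median -0.51, 0 positive) and the 17 ERK feedback and target genes (median -0.40, 3 positive). For the ATF4 and PPARα target genes, the medians were 0.27 and -0.06 with Klb and -0.23 and 0.36 with Fgfr1. These correlations describe 16 libraries that also differ in depth and cell makeup.

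Chac1, a glutathione-degrading enzyme gene induced by ATF4, was picked after its values were seen, as the ATF4 target nearest to Fgf21. In WT it was at 927, 104.7 and 401 normalized counts in batch A and 282 and 104.9 in batch B. In Lep(ob/ob) mice it had 256, 986, 175 and 171 in batch A and 326, 106 and 285 in batch B. The CCKRi-treated mice had 186, 286, 179 and 316. The mice highest for Chac1, Lep(ob/ob) mouse 472 and WT mice 5489 and 5494, were the highest for Fgf21 as well. Atf4 itself had r = 0.74 with Fgf21, and its normalized counts ran from 947 in CCKRi-treated mouse 69 to 3372 in WT mouse 5489.

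**Figure D5:**
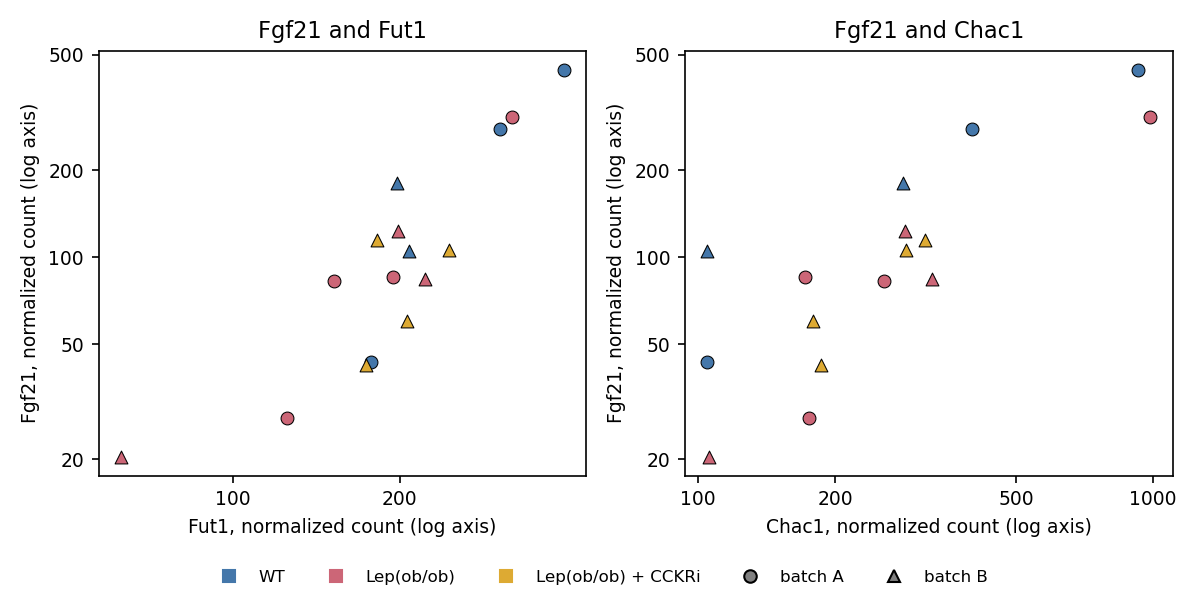
Normalized counts (log axes) of Fgf21 against those of its neighbour Fut1 and of the ATF4 target Chac1 in each of 16 mice, coloured by group, with circles for batch A and triangles for batch B. The same 3 mice, from the WT and Lep(ob/ob) groups, are highest for Fgf21, Fut1 and Chac1, with Fgf21 at 277 to 443.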

How the data were processed

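Whole pancreas of 16 mice was sequenced. Per the labels, the authors used Trim Galore 0.6.7 with cutadapt 3.5 for trimming and STAR 2.7.9 for alignment (mm10). They deposited raw read counts on 24411 genes, and a normalized signal for 17548 genes, the count divided by 1 size factor per mouse. The counter, strand setting and annotation are not given in the sources used here. Depth was 9.87 to 34.5 M counts per mouse. Among pairs of libraries of 1 group, chi-square per gene was 8.09 to 409, where sampling noise gives about 1.

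Raw counts were fitted in R 4.3.3 with edgeR 4.0.16 (TMM, filterByExpr, 3 groups and batch, quasi-likelihood test, Benjamini-Hochberg adjustment over 13660 genes, adjusted p under 0.05 called). DESeq2 1.42.0 was an alternative, and limma 3.58.1 removed the batch term for correlations. Log2 CPM used a prior count of 2. Exact two-sided permutation tests on log2(normalized count + 1) and correlations with 100000 permutations used Python 3.11.15 and scipy 1.17.1. Both count models were tested on simulated data. Mice are separate animals. The list of receptor adaptor and signalling genes is not reported here. Members and gene lists were chosen with earlier results of these data known. Named were the 3 genes, their receptor family, up to 4 called genes with the largest change of each list, and the 5 genes most like each member.

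The alternatives were no batch term, DESeq2, RLE scaling, TMM without the 50 most counted genes, no filter, a filter of 10 or more counts per mouse, a fit of the 2 groups alone, 1 batch or drug at a time, marker scores as covariates, a pseudocount of 10, another transcript length and leaving out each mouse. Leaving out 4 mice of high adipocyte markers was added after seeing the data.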

Additional observations from a re-analysis of the deposited data

Results flagged for a closer look

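Over 112 groups of 4 to 7 mice from 39 genes, 8 had a mouse whose gap to its nearest neighbour, as a share of the group's range on the scale of log2(normalized count + 1), was past Dixon's limit, and chance gives about 1 in 20. Fgfr1 in Lep(ob/ob) mouse 463 was at 970 normalized counts, where the other 6 were at 503 to 647 (share 0.616 on that log2 scale, as are the shares below). The same mouse was highest for Fgfrl1, at 546 against 203 to 288 (0.646), and for Acadl, at 973 against 381 to 546 (0.616). It also had the highest adipocyte and fibroblast marker scores of all mice. CCKRi-treated mouse 69 was highest of its group for Fgfrl1, at 400.5 against 157 to 163 (0.963), and for Srebf1, at 425 against 279 to 288 (0.928). WT mouse 5489, with the highest Fgf21, was lowest of WT for Etv1, at 18.8 against 53.0 to 64.9 (0.834), and for Slc25a20, at 29.6 against 59.0 to 75.3 (0.736). Fgf23 in Lep(ob/ob) mouse 417 rests on 1 read where the other Lep(ob/ob) mice had 0 (share 1.0).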

How the results depend on the processing

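No paired analysis was possible because mice of different groups have no number in common. In Lep(ob/ob) against WT, Fgf21 was lower in all 15 alternatives run, leaving out single mice aside, at -2.03 to -0.51 on the log2 scale (adjusted p 0.0638 to 0.564), and at -1.53 to -0.63 without 1 mouse, the extremes being without Lep(ob/ob) mouse 472 and without WT mouse 5489. Causes of the changes below were not tested. The lowest Fgf21 value rests on 29 reads, which limits its precision.

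Log2 fold changes that changed sign were, in Lep(ob/ob) against WT, Fgfr1 at 0.0001 (DESeq2 without batch), 0.0124 (TMM without the 50 most counted genes), 0.23 (batch B alone) and 0.56 (islet score, adjusted p = 0.0159, in a range over alternatives of 0.0159 to 1.0), Klb at 0.24 (batch B alone) and 0.0747 (acinar score), Fgfr3 at 0.29 and Fgfr4 at 0.0001 (batch A alone), Fap at -0.0083 (acinar score), and Fgfr3 at 0.11 without the 4 mice of high adipocyte markers. In CCKRi against Lep(ob/ob) they were Fgf21 at -0.36 (no batch term), -0.36 (DESeq2 without batch), -0.99 (fibroblast score) and -0.17 (without the 4 mice), Kl at -0.40, -0.40 and -0.34 (no batch term, DESeq2 without batch, proglumide alone), Fap at 0.23, 0.21 and 0.14 (no batch term, DESeq2 without batch, fibroblast score), Fgfr3 at -0.11 and Fgfrl1 at 0.39 (fibroblast score), and Fgfr2 at -0.0263, Fgfr3 at -0.25 and Fgfr4 at -0.28 without the 4 mice. In CCKRi against WT they were Fgf21 at 0.22 (acinar score) and Fgfr1 at 0.0342 (islet score). Fits without the 4 mice held mouse 464 as the only untreated Lep(ob/ob) mouse of batch B.

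Klb in CCKRi against Lep(ob/ob) passed without a batch term, at -1.18 in edgeR (adjusted p = 0.0488) and -1.19 in DESeq2 (adjusted p = 0.00742), in a range over alternatives of 0.00742 to 0.904. Against WT it passed at -1.36, -1.37 and -0.73 (no batch term, DESeq2 without batch, adipocyte score; adjusted p 0.00145 to 0.727 over alternatives). Fgfr1 in CCKRi against WT passed at -0.97 (lorglumide alone), -0.65 (adipocyte score), -0.94 (acinar score) and -0.64 (without the 4 mice), with adjusted p of 0.00485 to 0.936 over alternatives, and Fgf21 at -1.80 (fibroblast score, 0.0484 to 0.915).

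Genes called in Lep(ob/ob) against WT numbered 1239, and 798 with no batch term, 782 with at least 10 counts, 8 in batch B alone, and 1999, 3901 and 2018 with the adipocyte, islet and fibroblast score. For CCKRi against Lep(ob/ob) the 8 became 570, 104, 2518 (no batch term, DESeq2 with and without batch), 3 (only the groups compared), 2 (batch B), 0 and 0 (each drug alone), and 223, 22 and 290 with the same 3 scores. For CCKRi against WT the 761 became 1428 and 2320 (no batch term in edgeR and DESeq2), 438 (at least 10 counts), 278 (only the groups compared), 13 (batch B), 239 (proglumide alone), 1785, 1465 and 2077 (same scores) and 1342 (without the 4 mice).

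Leaving out 1 mouse gave 858 to 1447, 0 to 9 and 516 to 852 called genes in the 3 comparisons, with 0 in CCKRi against Lep(ob/ob) without CCKRi-treated mouse 72 or 74, and 3 to 5 without Lep(ob/ob) mouse 441, 472, 417, 447, 461 or 463 or CCKRi-treated mouse 76. In Lep(ob/ob) against WT it gave -0.26 to -0.0051 for Klb, -0.13 to 0.0637 for Fgfr1 and -0.41 to 0.0070 for Fgfr3. In CCKRi against Lep(ob/ob) it gave -0.18 to 0.51 for Fgf21, -0.79 to -0.39 for Klb, -0.74 to -0.33 for Fgfr1, -0.0075 to 0.22 for Fgfr2 and -0.83 to 0.0788 for Fgfrl1. In CCKRi against WT it gave -1.05 to -0.60 for Fgf21, -0.997 to -0.63 for Klb, which passed without WT mouse 59 (adjusted p = 0.0187), and -0.77 to -0.44 for Fgfr1. In Lep(ob/ob) against WT, Kl and Etv5 kept their calls in all 12 fits without 1 mouse. In batch B alone their calls were lost (adjusted p = 0.280 and 0.0817), and so were those of Etv1, Spred3, Fgf9, Acadl, Pdk4, Slc25a20, Mlxipl, Srebf1 and Ppara (0.0617 to 0.597). Without a batch term in edgeR, Spred3, Fgf9 and Mlxipl lost theirs as well (0.0690, 0.0602 and 0.190), and with the islet score too (0.0927, 0.133 and 0.268). In CCKRi against WT, Kl lost its call with the islet score (1.05, adjusted p = 0.280), with proglumide alone (0.0901), with only the groups compared (0.122) and in batch B alone (0.265).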
